A study of Mus musculus with 25 samples.

Results

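The sciatic nerve of C22 mice was compared with that of WT-C22 mice in 10 of the 25 RNA-seq libraries of the series, 5 of each genotype, which were taken when the mice were 3, 5, 7, 9 or 12 weeks old. These libraries were taken by genotype and background strain. C22 mice, on FVB/NRJ, were heterozygous for an insertion of human PMP22 on a yeast artificial chromosome, present in 10 copies. WT-C22 mice were FVB/NRJ of the same ages without the transgene. No library came from a single animal. Each was made from poly(A) RNA of whole nerves pooled from several males and females, the labels give every library the same batch, and a group had no second pool at any age. The 5 ages of a group therefore served as its replicates, and every SD and SE below covers the change with age together with the variation between pools. The contrast between models also used C3 mice, which are C57BL/6J and carry 5 copies of the same transgene, and their WT-C3 controls. The fit of the time course and the filter on low counts took in these groups and a further 5 libraries of C3-cJunKO mice, which are C3 mice without c-Jun in Schwann cells. The models differ both in copy number and in strain, which cannot be told apart.

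PMP22 is a membrane protein of compact myelin, the sheath that Schwann cells wrap around large axons, and its duplication is the cause of Charcot-Marie-Tooth disease type 1A. A Schwann cell passes from an immature state through a promyelinating state, marked by the factor Pou3f1 (Oct6), to the myelinating state, which is driven by Egr2 and Sox10. After injury it can turn to a repair state that depends on c-Jun. A whole nerve also holds axons, fibroblasts, perineurial cells, vessels, macrophages and fat.

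The 10 libraries held between 10196601 and 41376508 counts on genes, and 13993 of the 56956 genes in the table passed the filter on low counts, a log2 CPM (counts scaled to the library's total) above 1 in at least 7 of the 25 libraries. The first principal component of the 1000 most variable genes held 68.7% of the variance and separated the groups, with scores of -38.6 to -27.7 in C22 and 30.1 to 36.5 in WT-C22. The second, with 19.7%, set apart the WT-C22 library of 5 weeks, which was also the least deep. Skeletal muscle genes were high in that library and, to a lesser extent, in the C22 library of 3 weeks. Their 12 tested markers summed to 24.6 to 12020 CPM in WT-C22 and 70.8 to 3076 CPM in C22, and 0 of them passed the test in either direction with the edgeR quasi-likelihood test. Of fragments, 10.4% to 12.1% lay on no gene in C22 and 8.12% to 10.3% in WT-C22.

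Of the 13993 genes tested, 5939 (42.4%) changed between C22 and WT-C22 at an edgeR adjusted p under 0.05. Of these, 3070 (21.9% of those tested) rose and 2869 (20.5%) fell. The 2 groups of 5 libraries did not overlap for 4258 genes (30.4%), 2200 of them higher in C22 (15.7%) and 2058 lower (14.7%). Large changes were fewer and leaned downward. A log2 fold change beyond 1 was seen for 459 genes that rose and 574 that fell, and one beyond 3 for 43 and 70 genes. Where a gene list below had 0 members called in a direction by edgeR, DESeq2 called 0 too, except for 1 oxidative phosphorylation gene that was lower. An unadjusted p under 0.05 was reached there by 1 member each of the fibroblast and matrix glycoprotein lists (higher) and of the oxidative phosphorylation and skeletal muscle lists (lower), and by 0 members of the others. The median log2 fold change of all tested genes was 0.0046, against which the medians of gene lists below can be read. The counts of list members that rose or fell can likewise be read against 21.9% and 20.5% of all tested genes. With scaling by library size only, every value moved up by about 0.17 and 75.96% of calls were higher in place of 51.69%. In simulated counts for these 10 libraries, 13793 of 13993 genes were left unchanged and age had no effect. There 29% of genes changed by 0.5 on the log2 scale were recovered, 84.6% of those changed by 1 and 100% of those changed by 2. Far more genes were called in the data, so these shares do not measure recovery in the comparison itself.

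**Figure D1:**
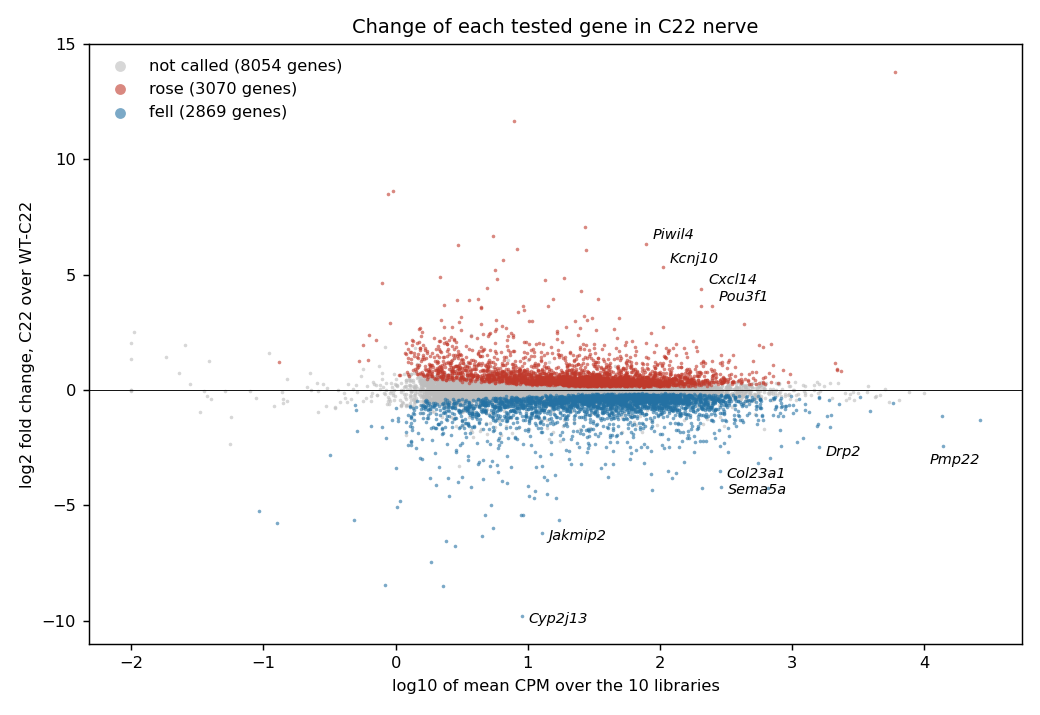
Each point is 1 of the 13993 tested genes, with the log10 of its mean CPM over the 10 libraries on the x axis and its fitted log2 fold change in C22 over WT-C22 on the y axis. Red points rose (3070), blue points fell (2869) and grey points did not pass an adjusted p of 0.05. The point at the top right is the human gene ENSG00000109099.

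The transgene was present in every C22 library. The count table lists 15 human genes of the added locus by Ensembl identifier without symbols, and 1 of them, ENSG00000109099, took nearly all of their fragments. It had 270802 to 356485 counts per C22 library, 1.07% to 1.43% of all counts on genes, and 1 to 83 counts in WT-C22. Its level in C22 was 12270, 14020, 12290, 9789 and 11420 CPM from the youngest to the oldest age. The WT-C22 library of 7 weeks, at 3.49 CPM, held most of the few control counts. ENSG00000125409 had 306 to 482 counts in C22 and 0 in all WT-C22 libraries, at least 646-fold higher when 3 counts over the control group are taken as the floor. With the same floor, ENSG00000279660 was at least 79.1-fold and ENSG00000286792 at least 71.3-fold higher. ENSG00000265445 and ENSG00000265110 stayed below the filter with 12 to 18 and 5 to 18 counts in C22.

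Mouse Pmp22 (ENSMUSG00000018217, chr11:63019718-63050600, plus strand, GRCm39) fell at every age. It stood at 4636, 4748, 4449, 3670 and 4267 CPM in C22 and at 32980, 28130, 20810, 20370 and 13820 CPM in WT-C22 from 3 to 12 weeks, a log2 fold change of -2.42 (SE 0.23, adjusted p = 9.42e-06 with edgeR). The C22 libraries lay close together, whereas the control declined with age, so that the groups were nearest at 12 weeks and did not overlap. Reads of the human and the mouse gene were counted separately, and reads that align to both would be lost to either.

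Compact myelin proteins mostly fell with it. Of 9 tested members of the list 5 fell, 1 rose and 3 were not called, with a median log2 fold change of -0.96. Mbp (-1.13), Mal (-1.08) and the tetraspanin Cd9 (-0.96) were among those that fell. Pmp2, a fatty acid binding protein of human myelin, was near the floor in both FVB groups, at 0.506 to 0.999 CPM in C22 and 0.355 to 2.15 CPM in WT-C22 (adjusted p = 0.37). In a whole nerve, fewer cells of a type and less RNA per cell cannot be told apart.

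Proteins of noncompact myelin, the paranode and the node were lower as a list, with 10 of 20 members down and 3 up and a median of -0.36. Drp2, which links periaxin to the dystroglycan complex in Cajal bands, fell most. It was at 336, 394, 465, 494 and 724 CPM in C22 and at 3317, 2694, 2787, 2723 and 1940 CPM in WT-C22, a log2 fold change of -2.48 (SE 0.21, adjusted p = 4.62e-06). The C22 values were higher at each older age and remained below the lowest control. Periaxin (Prx, -0.57) and connexin 32 (Gjb1, -0.56), both products of neuropathy genes, fell less, as did the adhesion proteins Cadm4 (-0.98) and Nrcam (-0.96). Mlip changed by -1.58 (SE 0.16, adjusted p = 1.58e-05). The members that rose were Cadm1 (1.02), the adhesion protein Mag (0.70) and Lgi4 (0.37), and 7 rather than 3 members rose with scaling by library size only.

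**Figure D2:**
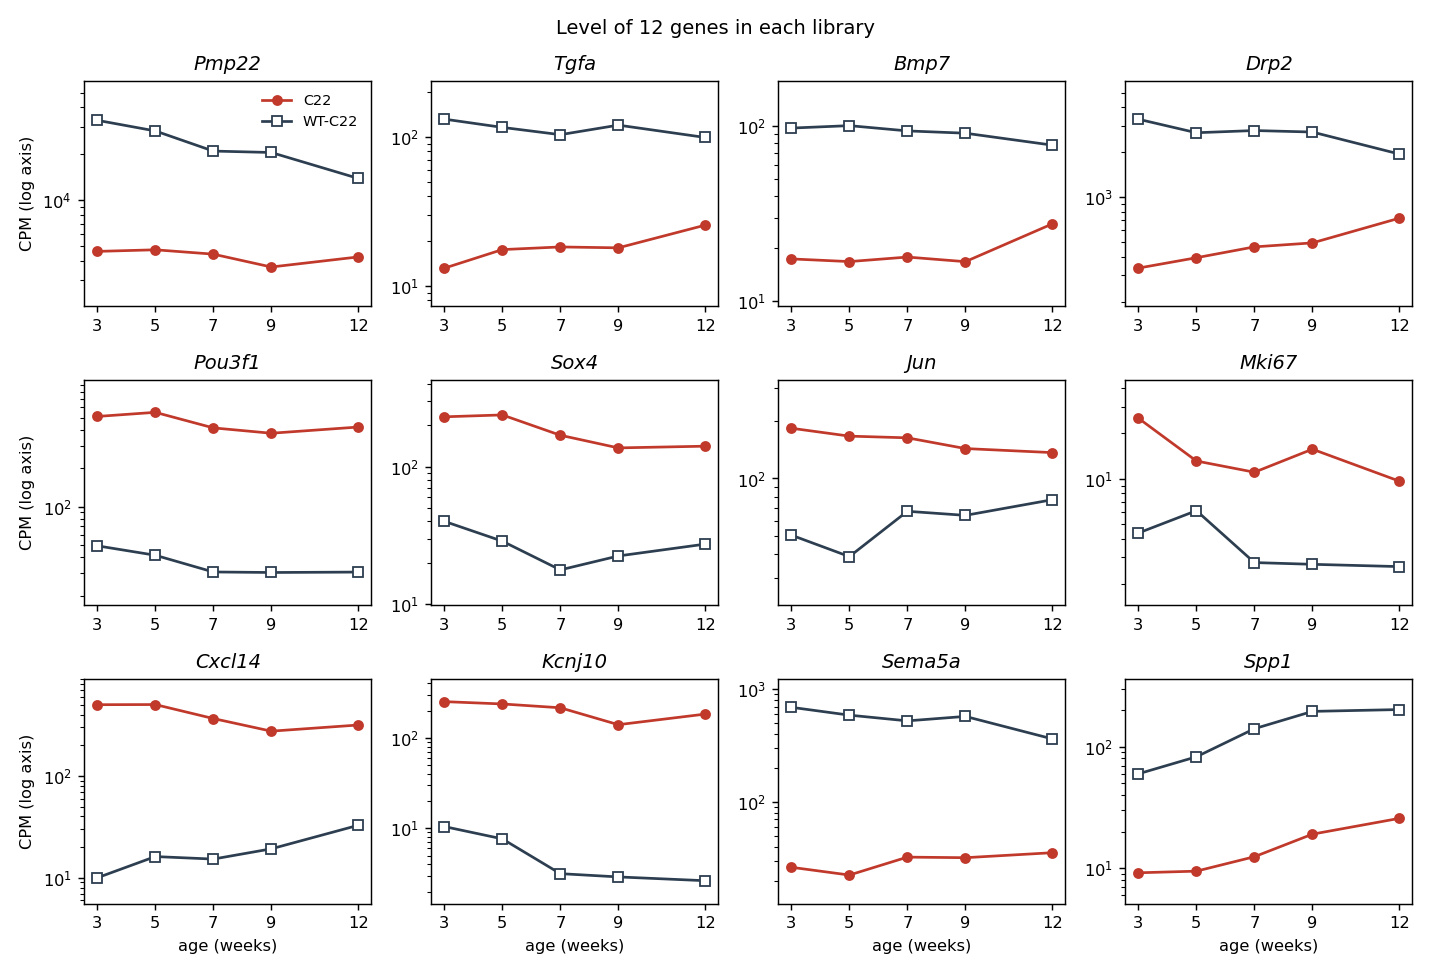
CPM on a log axis against age in weeks for 12 genes, 1 point per library, with filled red circles for C22 and open squares for WT-C22. In each panel all 5 C22 points lie on one side of the 5 WT-C22 points. Pmp22, Tgfa, Bmp7, Drp2, Sema5a and Spp1 are lower in C22 and the other 6 genes higher.

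Regulators of the promyelinating stage rose. Of 16 members 9 rose and 3 fell, with a median of 0.42. Pou3f1 (chr4:124550600-124554448, plus strand) was at 510, 549, 415, 377 and 421 CPM in C22 and at 49.3, 41.6, 30.7, 30.4 and 30.7 CPM in WT-C22. The lowest C22 library was above the highest control by a wide margin, and the log2 fold change was 3.64 (SE 0.17, adjusted p = 5.75e-08). Its relative Pou3f2 (Brn2) rose by 1.72 (SE 0.13, adjusted p = 1.36e-06), and the neuregulin receptor Erbb3 by 1.29, from 168 to 219 CPM in the controls to 398 to 516 CPM in C22. Sox10 rose by 0.51 (SE 0.09, adjusted p = 0.00123). Egr2, which partners with it in myelin genes, ranged from 152 to 215 CPM in C22 and from 129 to 201 CPM in WT-C22 and was not called (log2 fold change 0.24, adjusted p = 0.137). Without C22 at 9 weeks or WT-C22 at 7 weeks the adjusted p lay between 0.0394 and 0.0482, and with scaling by library size only it was 0.0142. The Egr corepressors moved apart, with Nab1 down by -1.05 (SE 0.08, adjusted p = 1.97e-06) and Nab2 up by 0.92. The adhesion receptor Adgrg6 (Gpr126), needed for the onset of myelination, changed by -0.56 (SE 0.13, adjusted p = 0.00403).

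Genes of immature Schwann cells rose as well, 10 of 15 members with 3 falling and a median of 0.76. Below the filter were 4 listed members. Of these Tfap2a had 84 to 158 counts per library in C22 and 1 to 6 in WT-C22. The counts of Pax3, Fabp7 and Sox11 overlapped between the groups. Sox4 was at 230, 238, 169, 137 and 141 CPM in C22 and at 40.1, 28.8, 17.8, 22.5 and 27.4 CPM in WT-C22, a log2 fold change of 2.75 (SE 0.23, adjusted p = 4.44e-06). Id2, an inhibitor of basic helix-loop-helix factors, changed by 2.26 (SE 0.18, adjusted p = 2.53e-06), Egr3 by 2.23, Runx2 by 1.61 and Sox2, which opposes myelination, by 1.54 (SE 0.15, adjusted p = 1.04e-05). The highest Sox2 value was that of C22 at 3 weeks, 35.8 CPM against 19.8 to 24.1 at the other ages and 7.99 to 9.55 in WT-C22. The neurotrophin receptor Ngfr (p75) rose by 1.12 (SE 0.16, adjusted p = 0.000208). Other genes used to mark immature or denervated Schwann cells went the other way. N-cadherin (Cdh2) changed by -0.97 and the growth cone protein Gap43 by -0.88 (adjusted p = 0.00743). Gfap, at 6.69 to 12.1 CPM in C22 and 11.0 to 17.3 CPM in WT-C22, changed by -0.60 (SE 0.19, adjusted p = 0.0226), and it lost the call without C22 at 5 weeks or WT-C22 at 3 weeks, with an adjusted p of 0.0523 and 0.0527. Ncam1 did not pass (-0.12, adjusted p = 0.351). With scaling by library size only its log2 fold change was 0.05 (adjusted p = 0.671).

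The AP-1 family, to which the repair factor c-Jun belongs, had 6 of 10 members up and 0 down with the edgeR test, and 0 lower at each age. Its median was 0.47. Jun was at 184, 167, 164, 144 and 137 CPM in C22 and at 50.3, 38.8, 67.2, 63.9 and 77.3 CPM in WT-C22, a log2 fold change of 1.41 (SE 0.16, adjusted p = 4.49e-05). The C22 values were lower at each older age while those of the control tended upward, without overlap. Fos (1.42) and Batf3 (1.74, from 1.20 to 2.86 CPM to 4.86 to 9.36 CPM) rose by more, and Atf3, an injury gene of neurons and Schwann cells, by 1.08 (SE 0.12, adjusted p = 3.06e-05).

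Trophic factors that repair Schwann cells release were split. Of 12 tested members 3 were up (25%, against 21.9% of all genes) and 4 down (33.3%, against 20.5%). Below the filter were 9 listed members, among them Gdnf, Artn and Bdnf. In counts not scaled by depth, Ucn2 (30 to 76 in C22, 3 to 26 in WT-C22), Fgf5 (13 to 25 and 2 to 9) and Olig1 (4 to 8 and 0 to 3) were higher in C22. The others overlapped between the groups. Shh (chr5:28661813-28672254, minus strand), the hedgehog ligand that Schwann cells make after injury, had 0 counts in all 5 C22 libraries. In WT-C22 it was at 0.579, 1.19, 1.51, 1.35 and 3.65 CPM, 240 counts in all. That is at least 84.6-fold lower in C22 when 3 counts over the group are taken as the floor (adjusted p = 0.000655). Tgfa, an EGF receptor ligand, was at 13.2, 17.5, 18.3, 18.0 and 25.6 CPM in C22 and at 131, 116, 103, 120 and 98.8 CPM in WT-C22, a log2 fold change of -2.62 (SE 0.16, adjusted p = 2.71e-07). The cytokine Lif fell by 2.49 on the log2 scale and Fgf7 by 1.22. Betacellulin (Btc), another EGF receptor ligand, rose by 2.17 (SE 0.24, adjusted p = 3.6e-05), and the cytokine Clcf1 by 0.73. The list's median was -0.10, or 0.08 with scaling by library size only, and it stays so with Shh set at its bound.

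Other members of the hedgehog list moved little. Of 13 members, Shh among them, 2 rose and 5 fell, with a median of -0.22. Dhh, the ligand by which Schwann cells direct the perineurium, was at 232 to 331 CPM in C22 and 206 to 265 CPM in WT-C22, a log2 fold change of 0.35 (adjusted p = 0.0189, and 0.0672 without both libraries high in muscle genes). The target gene Gli1 was not called (-0.09, or 0.08 with scaling by library size only), and the co-receptor Boc changed by -0.59 (adjusted p = 0.0132, and 0.0695 with that scaling). The repressor Sufu changed by 0.26 (adjusted p = 0.0386), which lay between 0.0599 and 0.0842 without each library in turn apart from C22 at 3 weeks and WT-C22 at 12 weeks. In these same 8 settings 1 member rose. The count that fell was 3 without C22 at 5 weeks and 2 without WT-C22 at 7 or 9 weeks. With scaling by library size only it was 1, Shh. At a threshold of 0.01 again only Shh fell, and 0 members rose.

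Cell cycle genes formed the list with the largest share of members up, 26 of 30 with 1 down and a median of 1.42. Of the members 25 (83.3%) were higher in C22 at all 5 ages, against 24.5% of all tested genes. Mki67, a protein of cycling cells, was at 25.2, 13.1, 11.1, 15.7 and 9.64 CPM in C22 and at 4.36, 6.14, 2.78, 2.702 and 2.61 CPM in WT-C22. The groups did not overlap, and the log2 fold change was 2.06 (SE 0.31, adjusted p = 0.000307). Topoisomerase Top2a followed closely, at 25.3, 14.5, 12.1, 16.5 and 9.64 CPM in C22 and 2.34 to 5.71 CPM in WT-C22. The mitotic kinase Aurka (2.44, SE 0.22, adjusted p = 6.98e-06) and the centromere protein Cenpf (2.15, SE 0.35, adjusted p = 0.000545) had the largest and the second largest rise. The list's median difference between the 2 libraries of an age was 1.83 at 3 weeks, 1.097 at 5, 1.17 at 7, 1.69 at 9 and 0.69 at 12 weeks on the log2 scale. The 4 members that did not rise work in DNA replication or its licensing and start, Pcna, Mcm3, Ccne1 and Mcm4. Mcm4 changed by -0.21 (adjusted p = 0.0426) and was between 0.0519 and 0.114 without each library in turn apart from WT-C22 at 3 weeks, so that 0 members then fell. Proteins that arrest the cycle did not mirror this. Of 7 CDK inhibitors 3 rose and 0 fell with the edgeR test. Cdkn2a was at 6.04 to 10.4 CPM in C22 and 2.31 to 3.57 CPM in WT-C22, a log2 fold change of 1.45 (SE 0.17, adjusted p = 5.69e-05). Cdkn1a (0.26, adjusted p = 0.0428) and Cdkn2b (0.42, adjusted p = 0.0304) were less firm. Cdkn1a was between 0.0607 and 0.103 without each library in turn apart from C22 at 9 weeks and WT-C22 at 3 weeks. Cdkn2b was between 0.0543 and 0.0707 without C22 at 3 or 9 weeks or WT-C22 at 3, 5, 7 or 9 weeks, and 1 inhibitor rose without C22 at 3 weeks or WT-C22 at 5, 7 or 9 weeks.

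The promoters of these genes share short sequences, which are shown for the 2 markers and the 2 members that rose most. They are from RefSeq on GRCm38.p6, 250 bases before to 50 after the start, 5′ to 3′ on the minus strand on which all 4 genes lie. Mki67 is at chr7:135716330-135716629, Top2a at chr11:99024140-99024439, Aurka at chr2:172370521-172370820 and Cenpf at chr1:189688037-189688336. Capitals mark the cell cycle homology region, TTTGAA, and the CCAAT box, CCAAT, on either strand, and the marked letters do not overlap.
Mki67: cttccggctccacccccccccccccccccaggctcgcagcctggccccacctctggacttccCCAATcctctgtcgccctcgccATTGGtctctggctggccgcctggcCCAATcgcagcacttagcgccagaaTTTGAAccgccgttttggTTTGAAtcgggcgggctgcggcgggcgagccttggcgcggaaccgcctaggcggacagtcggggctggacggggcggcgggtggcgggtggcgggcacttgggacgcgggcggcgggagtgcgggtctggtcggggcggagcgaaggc
Top2a: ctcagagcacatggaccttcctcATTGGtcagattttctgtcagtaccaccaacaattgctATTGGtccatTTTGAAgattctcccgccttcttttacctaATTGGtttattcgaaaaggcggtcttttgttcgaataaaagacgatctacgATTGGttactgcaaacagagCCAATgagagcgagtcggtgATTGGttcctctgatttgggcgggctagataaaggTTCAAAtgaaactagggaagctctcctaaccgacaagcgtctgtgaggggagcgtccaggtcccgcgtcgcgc
Aurka: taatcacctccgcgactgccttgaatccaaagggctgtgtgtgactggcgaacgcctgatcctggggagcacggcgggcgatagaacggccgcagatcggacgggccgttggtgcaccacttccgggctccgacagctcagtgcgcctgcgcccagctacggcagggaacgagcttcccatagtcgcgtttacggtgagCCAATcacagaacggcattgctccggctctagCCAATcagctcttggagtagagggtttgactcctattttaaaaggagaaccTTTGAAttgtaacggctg
Cenpf: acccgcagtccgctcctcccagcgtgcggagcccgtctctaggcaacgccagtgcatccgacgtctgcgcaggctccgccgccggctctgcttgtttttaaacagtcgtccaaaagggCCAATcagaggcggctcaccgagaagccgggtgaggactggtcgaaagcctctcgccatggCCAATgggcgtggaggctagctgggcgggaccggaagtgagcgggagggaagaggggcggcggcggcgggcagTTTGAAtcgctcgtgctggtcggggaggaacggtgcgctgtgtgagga
Of the 25 list members with a promoter in the table, 13 (52%) held TTTGAA and 21 (84%) held CCAAT, against 18.1% and 37.9% of all 27025 promoters of that length. Both were in 13 members (52%) and in 7.12% of all promoters. A match of letters is a description and not a bound site.

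**Figure D3:**
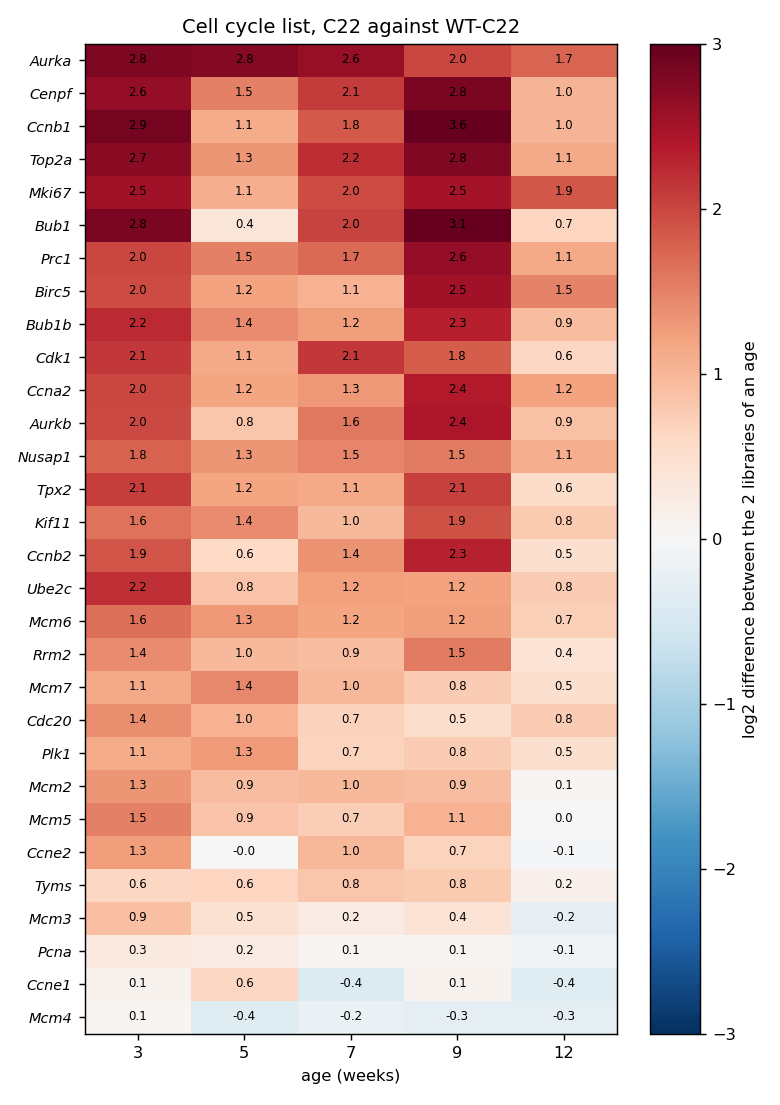
Log2 difference between the C22 and the WT-C22 library of the same age for the 30 genes of the cell cycle list, with ages in columns, genes ordered by their fitted fold change and each value printed in its cell. Red is higher in C22 and blue lower, and no gene from Aurka down to Mcm5 is lower at any age.

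Signal pathways gave mixed counts. Among ERK feedback genes 6 of 13 rose and 1 fell, with a median of 0.14, and 2 fell without WT-C22 at 9 weeks. The phosphatases Dusp4 (1.30, SE 0.21, adjusted p = 0.000422) and Dusp6 (0.36, SE 0.07, adjusted p = 0.00103) and Phlda1 (0.69) rose, and Spry1 changed by -0.46 (adjusted p = 0.00438). Of 14 Notch genes 2 rose, Notch1 by 0.71 (SE 0.07, adjusted p = 2.08e-05) and Nrarp by 0.55, and 6 fell, with Dll4, a ligand of endothelium, at -0.75 (adjusted p = 0.00605). Without the libraries high in muscle genes 3 fell, and 2 did so with scaling by library size only. Hey2, with 1.08 to 3.95 CPM in C22 and 3.36 to 5.88 CPM in WT-C22, changed by -1.003 (adjusted p = 0.0352), and was between 0.0615 and 0.0846 without C22 at 3, 5 or 12 weeks or WT-C22 at 5, 9 or 12 weeks. The target Hes1 was not called (0.29, adjusted p = 0.143), and without WT-C22 at 12 weeks, where it was highest among controls at 19.4 CPM, its adjusted p was 0.00384. The 12 members of the YAP and TAZ list fell more often, 7 against 1, with a median of -0.38. Tead4 was at 4.94 to 6.01 CPM in C22 and 15.8 to 23.2 CPM in WT-C22 (-1.80, SE 0.11, adjusted p = 3.4e-07), while Tead1, the TEAD factor of Schwann cells, rose by 0.70 (SE 0.12, adjusted p = 0.000563). Among the targets Ccn1 changed by -1.48 (SE 0.19, adjusted p = 8.59e-05). Ccn2 changed by -1.01 and did not pass (adjusted p = 0.0607), though it was between 0.027 and 0.0461 without C22 at 7 or 9 weeks or WT-C22 at 3 weeks.

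In the list of TGF-beta, BMP and activin genes 4 of 22 rose (18.2%) and 5 fell (22.7%), with a median of -0.17. These shares were near those of all genes, 21.9% and 20.5%. Bmp7 was at 17.4, 16.8, 17.8, 16.8 and 27.6 CPM in C22 and at 97.5, 101, 94.0, 91.2 and 77.9 CPM in WT-C22. These groups lay far apart, with a log2 fold change of -2.26 (SE 0.14, adjusted p = 4.32e-07). Bmp6 changed by -1.09 (SE 0.18, adjusted p = 0.000597), with a control level that was higher at each older age. The latency protein Ltbp2 (1.02) and Tgfb2 (0.81) rose, and Tgfb1 did not pass (0.23, adjusted p = 0.237).

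In the lists of collagens, basal lamina genes and matrix glycoproteins more members fell than rose. Of 35 collagen genes 3 rose and 12 fell, with a median of -0.20, and 5 rose without WT-C22 at 3 weeks and 6 with scaling by library size only. The fibrillar collagens Col1a1 and Col3a1 declined with age in both groups, from 5074 to 1624 and from 5147 to 2869 CPM for Col1a1 in C22 and WT-C22 between 3 and 12 weeks, and did not differ past the threshold (adjusted p = 0.751 and 0.654). Both chains of the common collagen IV fell, Col4a1 by 1.14 and Col4a2 by 0.87 on the log2 scale. Col23a1, a transmembrane collagen, was at 30.8, 37.1, 41.9, 49.3 and 70.1 CPM in C22 and at 590, 562, 519, 514 and 439 CPM in WT-C22, a log2 fold change of -3.52 (SE 0.21, adjusted p = 2.58e-07). Col8a2 fell by 2.50. The minor chains Col9a3 (1.62, SE 0.19, adjusted p = 4.84e-05) and Col27a1 (1.44, SE 0.28, adjusted p = 0.00166) rose.

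Of 22 genes of the basal lamina and its receptors, 10 fell and 1 rose, with a median of -0.21, and 2 rose without WT-C22 at 3 weeks. Their summed level was nevertheless higher in C22 at each age, from 8265 to 10670 CPM against 7792 to 10390 CPM. Laminin alpha 2 (Lama2), the main laminin chain of Schwann cells, did not pass (0.19, adjusted p = 0.43). The integrin Itga3 was at 7.59 to 14.2 CPM in C22 and 36.4 to 46.6 CPM in WT-C22 (-1.91, SE 0.15, adjusted p = 2.3e-06), and Lamb3 changed by -1.33 (adjusted p = 0.00399). Perlecan (Hspg2) rose by 0.92 (SE 0.15, adjusted p = 0.000485). Among 25 matrix glycoproteins 8 fell and 0 rose with the edgeR test, with a median of -0.20, and 1 rose without C22 at 5 weeks or WT-C22 at 7 weeks. Osteopontin (Spp1), which Schwann cells secrete, was at 9.16, 9.45, 12.4, 19.1 and 25.7 CPM in C22 and at 59.8, 82.6, 141, 195 and 202 CPM in WT-C22. It was higher at each older age in both groups and fell by 3.17 on the log2 scale overall (SE 0.40, adjusted p = 9.17e-05). Osteoglycin (Ogn) was at 346 to 541 CPM in C22 and 1468 to 2283 CPM in WT-C22 (-2.10, SE 0.15, adjusted p = 9.96e-07), and fibulin 5 (Fbln5) changed by -1.96. Fibronectin (Fn1, -0.25, adjusted p = 0.194) and tenascin C (Tnc, 0.07, adjusted p = 0.832) did not pass, and the sign of Tnc turned to -0.18 without C22 at 3 weeks and -0.03 without WT-C22 at 5 weeks.

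Of 33 matrix proteases and inhibitors 4 rose and 4 fell. The aggrecanase Adamts5 changed by -1.43 (SE 0.14, adjusted p = 1.22e-05) and the protease nexin Serpine2, a product of Schwann cells, by 0.91 (SE 0.12, adjusted p = 9.18e-05). Timp1, at 2.89 to 5.06 CPM in C22, did not pass (0.59, adjusted p = 0.0818, and 0.0437 without WT-C22 at 12 weeks). Adamts1 (-0.57, adjusted p = 0.0233) was between 0.0514 and 0.0674 without C22 at 3 or 5 weeks or WT-C22 at 7, 9 or 12 weeks. Adamts4 (0.81, adjusted p = 0.0411) was between 0.0547 and 0.106 without C22 at 3, 5 or 7 weeks or WT-C22 at 7, 9 or 12 weeks. The count that rose was 2 without C22 at 3, 5 or 7 weeks or WT-C22 at 7 or 9 weeks. The count that fell was 1 without C22 at 5 weeks or WT-C22 at 7 weeks, and 2 without C22 at 7, 9 or 12 weeks or WT-C22 at 5 or 12 weeks.

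**Figure D4:**
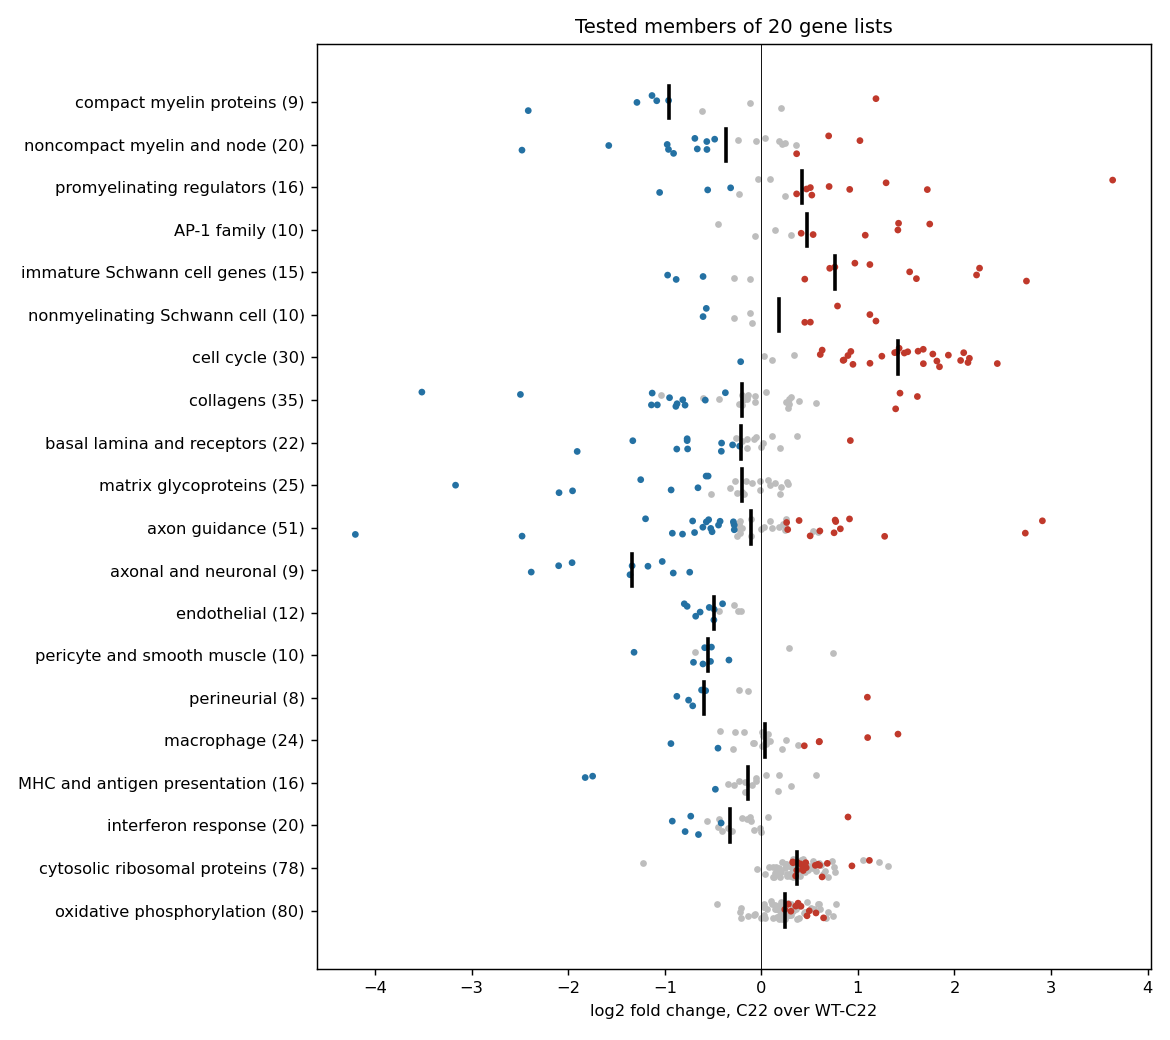
Fitted log2 fold change in C22 over WT-C22 on the x axis for each tested member of 20 gene lists, with the number tested in brackets. Red members rose, blue members fell, grey members did not pass, and the black bar is the median, which runs from -1.34 for axonal and neuronal genes to 1.42 for the cell cycle.

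Axon guidance genes moved in both directions, 13 of 51 up and 17 down, with a median of -0.10 (0.07 with scaling by library size only). Sema5a, a semaphorin (chr15:32244919-32696487, plus strand), was at 26.3, 22.4, 32.3, 32.0 and 35.4 CPM in C22 and at 692, 589, 524, 574 and 363 CPM in WT-C22. Every C22 library was far below every control, with a log2 fold change of -4.21 (SE 0.19, adjusted p = 4.4e-08). The repellent Slit2 was at 36.1 to 54.9 CPM in C22 and 179 to 263 CPM in WT-C22 (-2.48, SE 0.14, adjusted p = 1.66e-07). Sema3b, the most abundant semaphorin of the list, changed by -0.44 (adjusted p = 0.00631). Sema4f, which takes part in Schwann cell contact with axons, was at 3.62 to 6.82 CPM in C22 and 0.108 to 0.861 CPM in WT-C22 (2.73, SE 0.30, adjusted p = 3.05e-05). The netrin receptor Unc5a rose from 0.116 to 0.405 CPM to 1.31 to 1.81 CPM (2.91, SE 0.32, adjusted p = 3.24e-05), and the semaphorin co-receptor Plxna1 by 1.28.

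Of 30 potassium and sodium channel genes 6 rose and 11 fell, with a median of -0.18. Kcnj10 (Kir4.1, chr1:172168765-172201652, plus strand), the potassium channel with which glia take up potassium, was at 252, 238, 216, 140 and 184 CPM in C22 and at 10.5, 7.65, 3.15, 2.90 and 2.63 CPM in WT-C22. The groups did not come near each other at any age, and the log2 fold change was 5.31 (SE 0.41, adjusted p = 2e-06). The sodium channel subunit Scn3b was lower, at 5.13 to 7.00 CPM in C22 and 30.1 to 109 CPM in WT-C22 (-3.40, SE 0.30, adjusted p = 6.16e-06). Kcnk10 (2.15, SE 0.34, adjusted p = 0.00039) and Kcna1, the channel of the juxtaparanode (1.08, SE 0.13, adjusted p = 4.76e-05), rose, and Kcnk13 changed by -0.97 (adjusted p = 0.000718).

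Genes of axons and neurons fell without exception among the 9 tested, with a median of -1.34, and all 9 were lower at 5 of 5 ages. Their transcripts in a nerve can come from axons or from other cells, and the list's summed level was 164 to 212 CPM in C22 and 407 to 575 CPM in WT-C22. The neurofilament genes Nefl and Nefm were at 1.41 to 2.47 and 1.86 to 3.75 CPM in C22 and at 7.57 to 13.7 and 8.36 to 14.2 CPM in WT-C22. The log2 fold change of Nefl was -2.38 (SE 0.19, adjusted p = 2.78e-06) and that of Nefm -2.10 (SE 0.21, adjusted p = 1.34e-05). Nonmyelinating Schwann cell genes had 5 of 10 members up and 2 down, with a median of 0.18. Those up included Sox10 and Ngfr, described above, which other Schwann cells also express. The sodium channel Scn7a, a marker of Remak cells, changed by -0.57 (SE 0.08, adjusted p = 0.000208). With Gfap not passing, 1 member fell without C22 at 5 weeks or WT-C22 at 3 weeks.

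Vascular markers were lower. Of 12 endothelial genes 8 fell and 0 rose with the edgeR test, with a median of -0.49, and the list summed to 672 to 1029 CPM in C22 and 974 to 1283 CPM in WT-C22. Kdr, the VEGF receptor, changed by -0.77 (SE 0.16, adjusted p = 0.00266) and the transporter Slco1a4 by -0.80 (SE 0.15, adjusted p = 0.00144). The general marker Pecam1 did not pass (-0.44, adjusted p = 0.0878, and 0.0147 without C22 at 9 weeks, its highest C22 value). Of 10 pericyte and smooth muscle genes 7 fell, with a median of -0.56. Tagln, of contractile smooth muscle, was at 120 to 237 CPM in C22 and 297 to 645 CPM in WT-C22 (-1.32, SE 0.25, adjusted p = 0.00125), and the pericyte gene Rgs5 changed by -0.52 (SE 0.10, adjusted p = 0.00178). Higd1b (-0.70, adjusted p = 0.0364) was between 0.0578 and 0.0761 without C22 at 5, 9 or 12 weeks or WT-C22 at 3, 7, 9 or 12 weeks.

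Among perineurial genes 5 of 8 fell and 1 rose, with a median of -0.60. Their summed level was nevertheless higher in C22 at each age, from 1322 to 1588 CPM against 1096 to 1328 CPM. At 9 weeks the sums were close, 1322 and 1318 CPM. Claudin 1 (Cldn1), of the perineurial barrier, was at 124 to 154 CPM in C22 and 203 to 235 CPM in WT-C22 (-0.62, SE 0.07, adjusted p = 5.91e-05), the glucose transporter Slc2a1 changed by -0.88 (adjusted p = 0.00129) and Ntng1 by -0.75 (adjusted p = 0.0022). Itih5 rose by 1.098 (SE 0.10, adjusted p = 8.82e-06). Of 11 fibroblast genes 4 fell and 0 rose, with a median of -0.11 (0.05 with scaling by library size only), and 1 rose without C22 at 5 weeks. Dpp4 changed by -0.72 (adjusted p = 0.00239) and Sox9 by -0.81 (adjusted p = 0.000272). Pdgfra changed by -0.26 (adjusted p = 0.0124, and 0.373 with that scaling). Of 9 adipocyte and 4 blood genes 0 passed with the edgeR test, and their summed levels overlapped between the groups, from 3155 to 9427 CPM in C22 for adipocytes and from 134 to 509 CPM for blood.

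**Figure D5:**
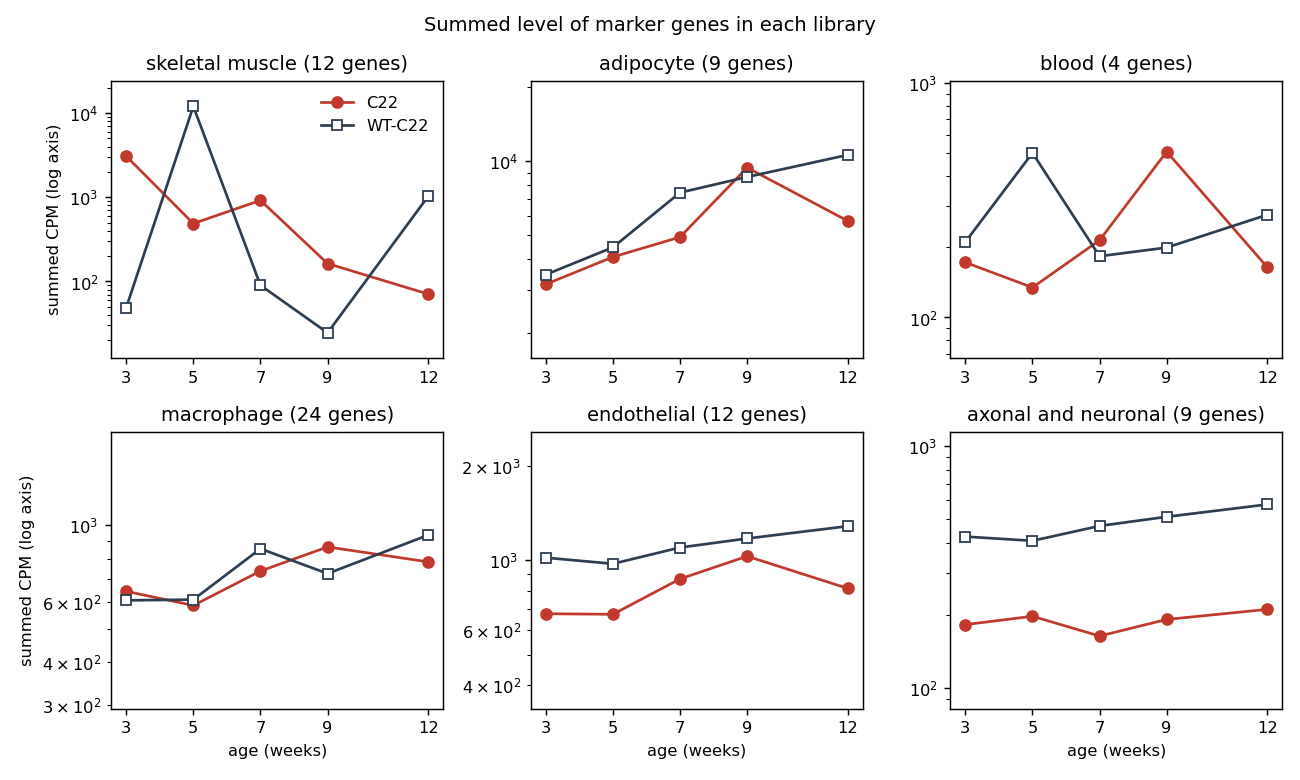
Summed CPM of the tested members of 6 marker lists on a log axis against age in weeks, with filled red circles for C22 and open squares for WT-C22. Axonal and neuronal markers are lower in all 5 C22 libraries, endothelial markers are lower at each age, and skeletal muscle markers peak in WT-C22 at 5 weeks and C22 at 3 weeks.

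Macrophage genes did not move as a list, with a median of 0.04. Of 24 members 5 were up (20.8%, near the 21.9% of all genes) and 2 down (8.33%, against 20.5%). Their summed level was 585 to 866 CPM in C22 and 605 to 938 CPM in WT-C22. The general markers Adgre1 (F4/80, -0.09, adjusted p = 0.623) and Csf1r (-0.27, adjusted p = 0.118) did not pass. With scaling by library size only the log2 fold change of Adgre1 was 0.08 (adjusted p = 0.705). Csf1r had an adjusted p of 0.0347 without C22 at 9 weeks. The members that rose were Cx3cr1, Trem2, Ms4a7, Lgals3 and Aif1. Cx3cr1, a receptor of resident cells of the endoneurium, was at 20.2 to 29.8 CPM in C22 and 6.01 to 12.9 CPM in WT-C22 (1.42, SE 0.21, adjusted p = 0.000268), and the lipid receptor Trem2 at 9.20 to 12.9 and 4.37 to 6.13 CPM (1.101, SE 0.14, adjusted p = 9.12e-05). The scavenger receptor Cd163 was lower, at 14.7 to 31.2 CPM in C22 and 26.8 to 61.5 CPM in WT-C22 (-0.94, SE 0.24, adjusted p = 0.00845). The mannose receptor Mrc1 (-0.45, adjusted p = 0.0289) was between 0.0626 and 0.0784 without C22 at 3 or 5 weeks or WT-C22 at 7, 9 or 12 weeks, where 1 member fell, and 4 fell without C22 at 9 weeks.

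Few markers of other leukocytes were detected. Of 13 lymphocyte genes 0 passed the filter on low counts, and of 8 neutrophil and monocyte genes 2 did. Csf3r, one of these, changed by 0.87 (adjusted p = 0.0191, and 0.0515 without WT-C22 at 9 weeks). Of 7 mast cell genes 1 rose, the receptor Kit (0.74, adjusted p = 0.0109), which other cells also make, while the granule protease Cpa3 did not pass (-0.41, adjusted p = 0.291). The list's median was -0.15 (0.01 with scaling by library size only), over ages that differed in sign. Its median difference was 0.94 at 3 weeks, 0.42 at 5, -0.66 at 7, -0.29 at 9 and -0.55 at 12 weeks. With 7, 9 and 12 weeks only, 2 members fell and the adjusted p of Cpa3 was 0.00359.

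Chemokines and cytokines had 2 of 15 members up and 4 down, with 13 listed members below the filter, among them Ccl3, Il6, Il1b and Tnf, and a median of -0.16 (0.01 with scaling by library size only). Cxcl14 (chr13:56436352-56444603, minus strand), a chemokine, was at 500, 502, 366, 275 and 316 CPM in C22 and at 10.0, 16.2, 15.3, 19.2 and 32.8 CPM in WT-C22. C22 was far above the control at each age, and the distance narrowed with age, with a log2 fold change of 4.38 (SE 0.32, adjusted p = 1.29e-06). Cxcl10 rose by 1.74 (SE 0.20, adjusted p = 3.99e-05) at a low level of 2.04 to 2.74 CPM. The alarmin Il33 changed by -0.76 (SE 0.14, adjusted p = 0.00137). Ccl9 (-0.66, adjusted p = 0.0291) was between 0.0577 and 0.0875 without C22 at 3, 5 or 7 weeks or WT-C22 at 7 or 12 weeks. Ccl2 (0.36, adjusted p = 0.3) and Csf1 (-0.11, adjusted p = 0.578), both of which draw or sustain macrophages, did not pass.

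Of 16 genes of the MHC and antigen presentation 3 fell (18.8%, near the 20.5% of all genes) and 0 rose with the edgeR test. The median was -0.14 (0.03 with scaling by library size only). The 2 chains that load class II molecules fell together, H2-DMa from 83.1 to 116 CPM in WT-C22 to 19.1 to 33.7 CPM in C22 (-1.82, SE 0.15, adjusted p = 3.52e-06) and H2-DMb1 by a log2 of -1.75 (SE 0.21, adjusted p = 5.42e-05). The invariant chain Cd74 did not pass (0.18, adjusted p = 0.677) and turned to -0.21 without C22 at 9 weeks, where it was at 200 CPM. Among 20 interferon response genes 5 fell and 1 rose, with a median of -0.32. Rsad2 changed by -0.92 (SE 0.19, adjusted p = 0.00244), Ifi44 by -0.79 (adjusted p = 0.013), and Isg15 did not pass (0.07, adjusted p = 0.719).

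Of 29 genes of ER stress and folding 10 rose (34.5%, against 21.9% of all genes) and 5 fell (17.2%, against 20.5%), with a median of 0.13. The count that fell was 3 without C22 at 12 weeks and 1 with scaling by library size only. The chaperone BiP (Hspa5) was at 375 to 523 CPM in C22 and 413 to 517 CPM in WT-C22 (0.07, adjusted p = 0.625). Ddit3 (CHOP), of the late stress response, was at 19.0, 14.2, 13.9, 17.4 and 18.9 CPM in C22 and at 8.11, 7.97, 10.1, 8.94 and 9.09 CPM in WT-C22, without overlap (0.91, SE 0.12, adjusted p = 0.000102). Sdf2l1 (0.47, adjusted p = 0.0267) was between 0.0566 and 0.0699 without C22 at 3 weeks or WT-C22 at 5 or 9 weeks. Derl1 (-0.50, adjusted p = 0.003) and Dnajc3 (-0.36, adjusted p = 0.00157, and 0.0755 with scaling by library size only) were lower. Of 17 heat shock genes 3 rose and 2 fell, and of 31 proteasome genes 3 rose and 0 fell. With scaling by library size only 6 heat shock and 19 proteasome genes rose. Hspe1 rose by 0.76 (adjusted p = 0.00791) and Hsf1 by 0.28 (adjusted p = 0.00809), Cryab changed by -0.37 (adjusted p = 0.0161, and 0.0922 with scaling by library size only), and Hspb1 did not pass (-0.44, adjusted p = 0.141, and 0.0294 without WT-C22 at 5 weeks). Hspa1b, which has a near-identical copy, changed by -0.52 (adjusted p = 0.0429), and was between 0.0696 and 0.121 without each library apart from C22 at 9 weeks and WT-C22 at 5 weeks. The heat shock count that fell was 1 in 6 of these settings, without C22 at 3, 7 or 12 weeks or WT-C22 at 7, 9 or 12 weeks. In the proteasome Psmb3 rose by 0.44 (adjusted p = 0.0173), Psma1 did not pass (0.07), and Psmc4 (0.33, adjusted p = 0.0403) was between 0.0504 and 0.0973 without C22 at 3, 5 or 7 weeks or WT-C22 at 3, 5, 7 or 9 weeks. The proteasome count that rose was 6 without C22 at 12 weeks and 11 without WT-C22 at 12 weeks, 1 fell without C22 at 5 weeks, and 0 rose without the libraries high in muscle genes.

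In the list of autophagy and lysosome genes 9 of 35 rose (25.7%, against 21.9% of all genes) and 4 fell (11.4%, against 20.5%). The median was 0.03. The lysosomal channel Mcoln1 rose by 0.53 (SE 0.08, adjusted p = 0.000231) and the protease Ctsd by 0.66 (adjusted p = 0.0143, and 0.0746 without the libraries high in muscle genes). Npc2, which carries cholesterol out of lysosomes, was at 203 to 236 CPM in C22 and 345 to 444 CPM in WT-C22 (-0.80, SE 0.08, adjusted p = 2.31e-05). Gabarapl1 changed by -0.42 (adjusted p = 0.00697, and 0.0797 with scaling by library size only).

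Of 23 genes of glycolysis and lactate 2 rose and 7 fell, with a median of -0.30. Aldoc, an aldolase of brain and glia, was at 1.14, 0.979, 0.905, 1.45 and 0.848 CPM in C22 and at 34.2, 21.8, 16.9, 13.4 and 9.14 CPM in WT-C22. The control was lower at each older age and C22 was at or near 1 CPM throughout, a log2 fold change of -4.15 (SE 0.36, adjusted p = 4.58e-06). The lactate transporter Slc16a1 (MCT1), with which glia supply axons, was at 86.1 to 99.6 CPM in C22 and 163 to 190 CPM in WT-C22 (-0.93, SE 0.06, adjusted p = 9.02e-07). Pfkp rose by 0.67 (adjusted p = 0.00795) and Eno2 by 0.28 (adjusted p = 0.0179, and 0.057 without the libraries high in muscle genes). Ldha did not pass (-0.18, adjusted p = 0.55). Without WT-C22 at 12 weeks its log2 fold change was 0.01 (adjusted p = 0.965).

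Subunits of oxidative phosphorylation and cytosolic ribosomal proteins rose where they passed, but the counts turned on single libraries. For oxidative phosphorylation 11 of 80 rose (13.8%, below the 21.9% of all genes) and 0 fell, with a median of 0.24. The count that rose was 4 without C22 at 3 weeks or WT-C22 at 7 weeks, 5 without C22 at 5 weeks or WT-C22 at 9 weeks, 7 without WT-C22 at 3 or 5 weeks and 28 without WT-C22 at 12 weeks, and 1 fell without C22 at 3 or 5 weeks or WT-C22 at 7 weeks. For ribosomal proteins 18 of 78 rose (23.1%, near the share of all genes) and 0 fell, with a median of 0.37. With scaling by library size only 35 and 60 members of the lists rose. The count was 8 without C22 at 3 or 5 weeks, 9 without WT-C22 at 7 weeks and 36 without WT-C22 at 12 weeks. The median difference of the ribosomal list was 0.84 at 3 weeks, 0.72 at 5, 0.27 at 7, 0.12 at 9 and -0.26 at 12 weeks. Ndufb7 rose by 0.57 (adjusted p = 0.0127), and Ndufa3 (0.64, adjusted p = 0.0327) was between 0.0573 and 0.0778 without C22 at 3 or 5 weeks or WT-C22 at 7 or 9 weeks. Cox4i1 did not pass (0.19, adjusted p = 0.45), with its highest value, 337 CPM, in WT-C22 at 12 weeks and an adjusted p of 0.04 without it. Rpl13a (1.12, adjusted p = 0.00454) and Rpl29 (0.94, adjusted p = 0.0166) rose and Rpl3 did not pass (0.15, adjusted p = 0.215). Many ribosomal protein genes have processed copies that could share their reads.

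The largest changes over the whole transcriptome were in genes outside most of these lists. Among the 10 largest rises of mouse genes with a mean of at least 5 CPM, Piwil4, of the piRNA pathway, was the most abundant after Kcnj10. It was at 170, 151, 164, 120 and 171 CPM in C22 and at 2.63, 2.05, 1.72, 1.83 and 1.44 CPM in WT-C22 (6.34, SE 0.17, adjusted p = 2.95e-09). Cmtm2b was at 39.7 to 69.5 CPM in C22 and 0.101 to 0.969 CPM in WT-C22 (7.08, SE 0.35, adjusted p = 7.32e-08). Ppp2r2c, a regulatory subunit of phosphatase 2A, was at 33.0 to 75.2 CPM and 0.557 to 1.08 CPM (6.09), and Diras2, a Ras-like GTPase, at 31.5 to 42.4 and 0.754 to 1.81 CPM (4.84). The others, all under 25 CPM in C22, were Nxf7 (6.69), Slain1 (6.12), the tight junction protein Marveld3 (5.63), the lipid transporter Abca12 (5.21) and Rit2 (4.82). Nxf7 and other genes with relatives of like sequence could share reads with them.

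Among the 10 largest falls, Cyp2j13 (chr4:95915771-95965813, minus strand), a member of a cytochrome P450 cluster with close relatives, had 2 counts over all C22 libraries and 2072 over all WT-C22 libraries. Its ratio was 1095 (95% exact interval 303 to 9049, which covers counting error only), with 11.0 to 21.0 CPM in WT-C22. Jakmip2 was at 0.344, 0.343, 0.217, 0.325 and 0.463 CPM in C22 and at 26.3, 27.3, 26.5, 26.1 and 19.4 CPM in WT-C22 (-6.20, SE 0.17, adjusted p = 2.95e-09). Wt1, a zinc finger transcription factor, was at 0.207, 0.392, 0.652, 0.904 and 1.16 CPM in C22 and at 36.0, 37.1, 36.2, 31.8 and 27.0 CPM in WT-C22. It was higher at each older age in C22 and stayed far below its controls (-5.65, SE 0.30, adjusted p = 1.4e-07). B3gat1, which makes the HNK-1 carbohydrate carried by myelin proteins of motor axons, was likewise at 0.379, 0.685, 0.761, 1.52 and 2.81 CPM in C22 and at 26.2 to 34.9 CPM in WT-C22 (-4.67, SE 0.39, adjusted p = 4.09e-06). The remaining falls were the endocytic adaptor Snap91 (-5.96), Nalf2 (-5.42), Cnmd (-5.40), Tchh (-5.003), the phospholipase Pla2g5 (-4.70) and the tubulin ligase Ttll6 (-4.59). All 20 genes differed without overlap, as the rule for naming them requires.

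Whether the change in C22 differed from that in C3 was tested as 1 contrast over 20 libraries. The C3 library of 9 weeks was shallow, with 2140142 counts, and the others of C3 and WT-C3 held 9001002 to 49072746. Without it 1951 genes differed. Of the 13993 genes 1687 (12.1%) differed, 664 higher (4.75%) and 1023 lower (7.31%) in C22 relative to C3. Of the 1279 that also had a call in C22, 402 rose with a positive difference from C3 and 862 fell with a negative one. These counts do not take the direction in C3 into account. The remaining 15 differed against the direction of their C22 call, 12 among those that rose and 3 among those that fell. Shh, among the 862, stood out, since its direction in C3 was opposite. It was at 9.59 to 24.5 CPM in C3 and 0.779 to 6.56 CPM in WT-C3, while C22 had 0 counts (adjusted p of the difference = 5.58e-05). Gadl1 was at 6.43 to 28.7 CPM in C3, 0.341 to 2.37 CPM in WT-C3, 0.724 to 1.23 CPM in C22 and 0.965 to 2.41 CPM in WT-C22 (difference -4.79, SE 0.61, adjusted p = 1.95e-05). Its own fall in C22, -0.78 (adjusted p = 0.0273), was at 0.0507 to 0.0695 without C22 at 7 or 9 weeks or WT-C22 at 9 or 12 weeks.

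Gfap likewise was at 15.5 to 32.3 CPM in C3 and 3.19 to 5.92 CPM in WT-C3, a difference between the changes of -2.88 (adjusted p = 3.2e-06). Cyp2j13 (-5.92), Jakmip2 (-5.62) and the claudin Cldn14 (-5.16) fell further in C22 than in C3. Cldn14 was at 0 to 0.181 CPM in C22 and 7.11 to 10.5 CPM in WT-C22, and at 2.82 to 6.05 CPM in C3 and 8.10 to 12.5 CPM in WT-C3. Mouse Pmp22 differed too, by -1.28 (adjusted p = 0.00346). Among rises larger in C22 were Slain1 (3.79), Nell2 (3.65), Ppp2r2c (3.13), the kinase Pak5 (2.95) and the adenylyl cyclase Adcy2 (2.86). Nell2, a secreted ligand of axon guidance receptors, was at 36.4 to 61.6 CPM in C22 and 0.887 to 4.86 CPM in WT-C22 but at 1.39 to 5.08 CPM in C3 and 1.46 to 4.13 CPM in WT-C3. Strain and copy number, which differ together here, cannot be told apart as sources of these differences.

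The difference between C22 and WT-C22 changed with age for few genes. A spline of age with 3 degrees of freedom found 8 of 15298 genes (0.0523%), and a linear slope 71 (0.464%), 63 with a more positive and 8 with a more negative slope in C22. With the filter on low counts used for the other results, the spline called 0 genes by edgeR, though 1633 had an unadjusted p under 0.05, and the 6 genes below stood at an adjusted p of 0.0584. Of the 63, 45 had fallen in C22, so that the distance between the groups narrowed with age, and 8 had risen. The gene with the smallest adjusted p was Cxcl14, with a slope difference of -0.26 per week on the log2 scale (SE 0.04, spline adjusted p = 0.0323), negative in C22 (-0.09) and positive in WT-C22 (0.17). Gm36356, annotated as a long noncoding RNA, was at 4.03 to 9.44 CPM in C22 and 45.8 to 106 CPM in WT-C22, with a slope difference of 0.26 (SE 0.04, spline adjusted p = 0.045). Cd55, a complement regulator, was at 26.5, 27.5, 37.4, 44.6 and 47.0 CPM in C22 and 85.7 to 133 CPM in WT-C22 (slope difference 0.17, spline adjusted p = 0.045). Lss, of cholesterol synthesis, was level in C22 at 33.7 to 38.2 CPM and declined from 351 to 117 CPM in WT-C22 (slope difference 0.18). Ttll6 (slope difference 0.35) and Actc1, a muscle actin at 143 CPM in WT-C22 at 5 weeks, also passed the spline at 0.045, and neither passed with a linear slope.

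These age results rested on single libraries. Without WT-C22 at 12 weeks the linear slope was called for 0 genes by edgeR, though 804 had an unadjusted p under 0.05, without C22 at 3 weeks for 5, without C22 at 12 weeks for 12, without WT-C22 at 3 weeks for 15 and without WT-C22 at 5 weeks for 38. With the slope, Cxcl14 was at 0.164 without WT-C22 at 12 weeks. Cd55 was between 0.109 and 0.394 without C22 at 3 weeks or WT-C22 at 12 weeks, and Gm36356 (0.0511 to 0.27) and Lss (0.0642 to 0.153) without C22 at 3 or 12 weeks or WT-C22 at 3 or 12 weeks. DESeq2's likelihood ratio test called 192 genes.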

How the data were processed

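Sciatic nerve RNA was sequenced by the authors as stranded poly(A) libraries on an Illumina NovaSeq. Per the labels and the study's methods, reads were checked with FastQC 0.11.9, trimmed with cutadapt 2.10, aligned with STAR 2.7.5a to GRCm39 extended by the human locus of the transgene, deduplicated with UMI-tools 1.1.1 and counted with HTSeq 0.12.4, and the strand setting is not given in the sources used here. The deposited values are whole-number counts per gene and library, not normalized. The 5 summary lines of the counter were removed, and symbols and coordinates were taken from GENCODE M39, with 56323 of 56941 mouse identifiers matched. The 15 human identifiers are paired with no symbol.

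The 13993 genes with log2 CPM above 1 in at least 7 of 25 libraries were tested in R 4.3.3 with edgeR 4.0.16 (TMM scaling, quasi-likelihood test, 5 C22 against 5 WT-C22, Benjamini-Hochberg adjusted p under 0.05). SE is the size of the log2 fold change over the square root of F. The contrast with C3 used 20 libraries, and the time course all 25 (C3-cJunKO included) with a natural spline of age. CPM are TMM scaled. The C22 and WT-C22 libraries held 10196601 to 41376508 counts, the C3 and WT-C3 libraries 2140142 to 49072746, and intervals and floors cover counting error only. Nothing in the labels names separate pools at an age, so p-values measure the spread between these libraries. The script was tested on simulated counts.

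Ages shared by C22 and WT-C22 were checked for pairing by the correlation of deviations from the group means, which was 0.103, 0.0908, 0.0865, 0.435 and -0.151, and were not treated as pairs. Alternatives were median-ratio and library-size scaling, DESeq2 1.42.0, the likelihood ratio test, other filters, a fit over all 25 libraries, blocking on age, 0.01 as the threshold, and leaving out each library in turn. Leaving out both libraries high in muscle genes, and using only 7, 9 and 12 weeks, were added after seeing the data.

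The comparison, the gene lists and their members were chosen with earlier results of these data known. Genes named were the 10 largest rises and falls with a mean of at least 5 CPM and no overlap between groups, the human genes and Pmp22, the fixed anchors and the 2 largest rises and falls of each list, the 5 largest differences from C3 in each direction, and the 6 genes with the smallest time course p. Other list members named in passing were chosen after their values were seen. Promoter sequences are those of RefSeq. Results for a few genes are not reported here.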

Additional observations from a re-analysis of the deposited data

Results flagged for a closer look

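In 16 of 184 groups of 5 libraries, over 92 genes, 1 library stood far from the other 4, where chance gives about 1 group in 20. In C22 these were 3 weeks for Pmp2 (0.999 CPM), Sox2 (35.8 CPM) and Actc1 (18.9 CPM), 5 weeks for ENSG00000286792 (2.35 CPM), 9 weeks for Sox10 (504.0 CPM) and 12 weeks for Gm36356 (9.44 CPM). In WT-C22 they were 3 weeks for Sox10 (498 CPM) and Sema3b (2581 CPM), 7 weeks for ENSG00000109099 (3.49 CPM), and 12 weeks for Jakmip2 (19.4 CPM), Hes1 (19.4 CPM) and Cox4i1 (337 CPM). The WT-C22 library of 5 weeks stood apart for Nxf7 (0.431 CPM), Acta1 (1457 CPM), Alas2 (20.0 CPM) and Actc1 (143 CPM), and it is also the library with the highest sum of skeletal muscle markers.

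The change in C22 differed from the change in C3 for 1687 genes by an edgeR contrast. The named differences on the log2 scale were -10.80 for Shh, -5.92 for Cyp2j13, -5.62 for Jakmip2, -5.16 for Cldn14 and -4.79 for Gadl1, and 3.79 for Slain1, 3.65 for Nell2, 3.13 for Ppp2r2c, 2.95 for Pak5 and 2.86 for Adcy2. That of Shh depends on the prior count, since C22 had 0 counts. The sizes for Cyp2j13, with 2 counts over all C22 libraries, and for Cldn14 also rest on C22 levels near the floor.

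The difference between C22 and WT-C22 passed the edgeR spline test of age for Cxcl14 (adjusted p = 0.0323) and for Cd55, Ttll6, Gm36356, Lss and Actc1 (each 0.045). With the log2 CPM filter each of these genes stood at 0.0584 and did not pass. With a linear slope Ttll6 (0.0816) and the muscle actin Actc1 (0.74) did not pass either.

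Fragments on no gene, which enter no comparison of genes, made up 11.03% ± 0.711 of the C22 libraries and 9.25% ± 0.773 of the controls (SD over 5 libraries each, two-sided exact permutation p = 0.00794, the smallest that 5 against 5 can give).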

How the results depend on the processing

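Over single genes, 4192 values kept direction and side of the threshold, 229 kept direction but no longer passed, 24 newly passed and 31 turned sign. The count of genes called was 5058 to 6027 when each library was left out, with 2539 to 3174 higher and 2492 to 2920 lower. With scaling by library size only, 5485 were higher and 1736 lower, and with a threshold of 0.01 1952 were higher. The difference from C3 was called for 1312 to 1951 genes with a library left out (491 to 832 higher, 796 to 1152 lower), for 849 at 0.01 (283 and 566), and 1179 were higher with library-size scaling. The time course was called for 42 genes with the 10 libraries and a slope, 26 with 2 degrees of freedom, 192 with DESeq2, 71 with a slope, with a slope and a library left out for 5, 64, 55, 88 or 12 (C22 at 3, 5, 7, 9 or 12 weeks) and 15, 38, 62, 54 or 0 (WT-C22 at 3, 5, 7, 9 or 12 weeks), and 0 by edgeR with the log2 CPM filter, where 1633 had an unadjusted p under 0.05. The cause was not tested.

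With age as a block, 3060 genes rose and 3110 fell. Age is shared by both groups, but pools of the same age did not deviate together at every age, so the block was kept as an alternative. With it 10 interferon genes, 9 TGF-beta genes, 8 matrix protease genes and 3 adipocyte genes fell, 8 collagen genes and 11 ribosomal genes rose, and Ccn2 (adjusted p = 0.00209), Pecam1 (0.013) and Csf1r (0.0489) passed. With the block the sign turned for Acta1 (1.36) and Actc1 (0.99).

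At 7, 9 and 12 weeks only, the sign turned for Pmp2 (0.41), Ncam1 (0.0246), Tnc (-0.38), Hspa5 (-0.0216), Cox4i1 (-0.13), Rpl3 (-0.0069), Acta1 (0.19), Alas2 (0.54), Xist (0.04) and Actc1 (1.56). With library-size scaling it turned for Ncam1 (0.0504), Gli1 (0.0762), Col1a1 (0.0378), Adgre1 (0.0776) and Csf1 (0.0615). Without both libraries high in muscle genes it turned for Tnc (-0.27), Acta1 (0.67), Alas2 (0.33) and Actc1 (1.93). With each library left out in turn, values of both signs were seen for Col1a1 (-0.40 to 0.0868), Col3a1 (-0.49 to 0.0359), Tnc (-0.18 to 0.21), Ldha (-0.28 to 0.0133), Cd74 (-0.21 to 0.33), Acta1 (-2.42 to 1.82), Alas2 (-1.02 to 0.18) and Actc1 (-3.33 to 3.06). None of these genes passed the test in the comparison as reported. Depth limits low genes most, since WT-C22 at 5 weeks held 10196601 counts.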

Other observations

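Libraries were pools of both sexes. Of 5 sex-linked genes 3 were called higher in C22, the Y-linked Eif2s3y (1.13), Kdm5d (0.98) and Uty (0.85), and 1 of them when both libraries high in skeletal muscle genes were left out. The share of males in each pool is not given in the sources used here.

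By gene type, 2855 of 12854 tested protein-coding genes rose and 2717 fell, and of 684 long noncoding RNAs 154 rose and 112 fell.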
